A study of Mus musculus with 24 samples.

Results

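Genes of the heat shock response were followed library by library in mouse pancreatic islets with deletion of Cop1, alone or together with Etv genes. The 10 genes were Hspa1a, Hspa1b, Dnajb1, Hsph1, Bag3, Hspb1, Hspa8, Hsp90aa1, Hspd1 and Hspe1, and the NCBI Gene number of each was found among the 28059 genes of the deposited table. All 10 passed the filter on low values, which kept 14342 genes. They were chosen because earlier results of these data showed heat shock genes to differ between libraries, so their values are given as a description. No p-value is given for them, and where a fit over all genes called some of them, the count is stated beside that of all genes and nothing is read from it. Although the set is named for the cytosol, the products of Hspd1 and Hspe1 work in mitochondria.

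Heat shock proteins are chaperones that keep other proteins folded. When unfolded proteins accumulate, after heat, oxidation, loss of energy or tissue handling, the transcription factor HSF1 binds heat shock elements in the promoters of these genes and transcription rises within minutes. HSPA1A and HSPA1B are the strictly inducible HSP70 chaperones, HSPA8 is the HSP70 that cells make all the time, and DNAJB1, HSPH1 and BAG3 are co-chaperones that load, reset or redirect HSP70. Islets meet such stress when the pancreas is digested with enzymes and the islets are picked and cultured.

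RNA was sequenced from cultured, handpicked islets of mice aged 3 to 4 months on a mixed background. COP1 attaches ubiquitin to transcription factors so that they are degraded, and the ETS factors ETV1, ETV4 and ETV5 are among its targets, and the design asks which changes after its loss need these factors. By their sample numbers the libraries form 2 sets, and each has controls. In set 1, 4 libraries carried the alleles Cop1fl/fl, Etv1fl/fl, Etv4ko/ko and Etv5fl/fl with the transgene Pdx1.CreERT2 (the Cop1 Etv1/4/5 deletion libraries). A further 3 carried Cop1 fl/fl with Pdx1.CreERT2 (Cop1 deletion), and 3 were controls with Cop1 fl/fl and no Cre. In set 2, 4 libraries carried Cop1fl/fl, Etv4ko/+ and Etv5fl/fl with Pdx1.CreERT2 (the Cop1 Etv4/5 deletion libraries, which keep 1 Etv4 allele), 4 had Cop1 deletion and 4 were controls. All animals share the floxed Cop1 alleles. Pdx1 is active in β cells and in some other cells of the pancreas, and CreERT2 is a Cre recombinase switched on by tamoxifen, so the presence of Cre and the loss of Cop1 cannot be told apart. The design text of the series names 5 biological replicates per genotype, while the labels give 4 libraries in each group. The labels do not tie libraries to animals, so p-values measure the spread between these libraries, which may be technical.

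Set 1 libraries had 0.331 to 0.526 of the depth of the deepest library and those of set 2 had 0.758 to 1, and total RPKM (reads scaled to gene length and library size) was 524289 to 682560 over all 22 libraries. The summed level of the β-cell markers was 165035 to 297275 RPKM, and no marker of the list was at 0. Cop1 was 0.719 to 1.13 RPKM in the 7 set 1 libraries labelled with its deletion and 1.22 to 1.55 RPKM in set 1 controls. In set 2 it was 0.763 to 0.934 RPKM in the 8 deletion libraries and 1.43 to 1.87 RPKM in controls. Etv4 went against its label in set 1, with 0.927 to 1.53 RPKM in the Etv1/4/5 libraries, 0.0551 to 0.0775 RPKM after Cop1 deletion and 0.0418 to 0.118 RPKM in controls, so its loss there rests on the label alone. Levels of Etv1 and Etv5, and of Etv4 in set 2, are not given here by group, so those losses are taken from the labels as well. Esr1, part of whose product is fused to Cre in CreERT2, was 99.1 RPKM in the library labelled set 1 control replicate 2, against 0.169 and 0.191 RPKM in the other set 1 controls. That library therefore goes against its label, and in set 2, control replicate 4 and Cop1 deletion replicate 3 stood apart in their values. The main results that rest on these libraries are given with and without them.

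HSF1 binds heat shock elements, and these were looked for in the promoters of the genes. The element was searched on both strands as GAA, NN, TTC, NN, GAA in direct succession, where N is any base and matches may overlap, in the 250 bases before the transcription start in RefSeq promoters of build GRCm38.p6. A promoter was found for 8 of the 10 genes, and Hspa8 and Hsp90aa1 had none in the table. The stretches below carry the best matches, with the element in capitals and the rest in lower case, each written 5′ to 3′ along the strand of its gene.
Hspe1, chr1:55088035-55088100, plus strand: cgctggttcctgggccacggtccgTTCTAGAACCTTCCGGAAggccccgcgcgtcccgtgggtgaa
Hspa1a, chr17:34972229-34972294, minus strand: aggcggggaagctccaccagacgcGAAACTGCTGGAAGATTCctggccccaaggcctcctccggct
Hsph1, chr5:149636328-149636393, minus strand: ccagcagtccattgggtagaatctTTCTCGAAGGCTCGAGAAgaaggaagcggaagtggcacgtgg
Hspb1, chr5:135887778-135887838, plus strand: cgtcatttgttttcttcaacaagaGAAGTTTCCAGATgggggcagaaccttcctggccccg

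The Hspe1 stretch holds 2 overlapping exact matches, at positions -89 to -72 from the start of Hspe1. Hspd1 lies on the other strand, and 2 of its starts had a window. From the start that is 216 bases from that of Hspe1, the same bases are at positions -144 to -127 of Hspd1. The other start, at the annotated gene end at 55088243, lies past the Hspe1 start at 55088148, and its window held no match. An exact match was found in 0.466% of all 32851 promoter windows. The other stretches match when 1 of the 9 fixed letters may differ, as do 6.08% of all windows. The element lies at -114 to -97 in Hspa1a, at -54 to -37 in Hsph1 and at -117 to -105 in Hspb1. From another start of Hsph1 it lies at -33 to -16. Hspa1b has the identical stretch at the same distance, at chr17:34959311-34959376, and the promoters of the Hspa1 pair are alike at 247 of 250 bases. No match of either kind was in the windows of Dnajb1 or Bag3, which says only that these letters are not in those windows.

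Some of these genes share sequence with others, which limits how their reads can be placed. Of all stretches of 50 bases in its transcripts, Hspa1a shares 60.3% with another gene, nearly all with Hspa1b, and Hspa1b shares 62.3%. The shares were 48.8% for Hspb1, 47.5% for Hsp90aa1, 39.7% for Hspd1, 38.6% for Hspa8 and 18.4% for Hspe1, mostly with pseudogenes, and 0.38% for Dnajb1. Hsph1 and Bag3 shared none. How reads that match several genes were counted is not given in the sources used here, so the levels of these genes are uncertain and are compared between libraries rather than with each other.

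The largest difference in these genes lay between the sets and not between genotypes. The inducible HSP70 genes were below 1 RPKM in most libraries of set 2 and far higher in every library of set 1. Hspa1a was 89.8, 113, 142 and 185 RPKM in the Etv1/4/5 libraries, 278, 249 and 249 RPKM after Cop1 deletion and 390, 164 and 547 RPKM in controls of set 1. In set 2 it was 0.335, 0.264, 0.383 and 0.248 RPKM in the Etv4/5 libraries, 0.496, 0.439, 3.13 and 0.377 RPKM after Cop1 deletion and 0.806, 0.643, 0.449 and 10.4 RPKM in controls. The lowest library of set 1 was above the highest of set 2, and within set 2 a single library of the Cop1 deletion group and a single control were well above the rest. Hspa1b followed the same order, with 107 to 581 RPKM in set 1 and 0.347 to 11.5 RPKM in set 2. The ratio of Hspa1a over Hspa1b was 0.778 to 1.008 in set 1 (median 0.914) and 0.578 to 1.108 in set 2 (median 0.868). In set 2 the low values rest on few reads: solving the RPKM of Hspa1a for whole reads, within 0.02 of a whole number, gave 32 to 1603 reads a library, against 5118 to 27867 in set 1.

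**Figure D1:**
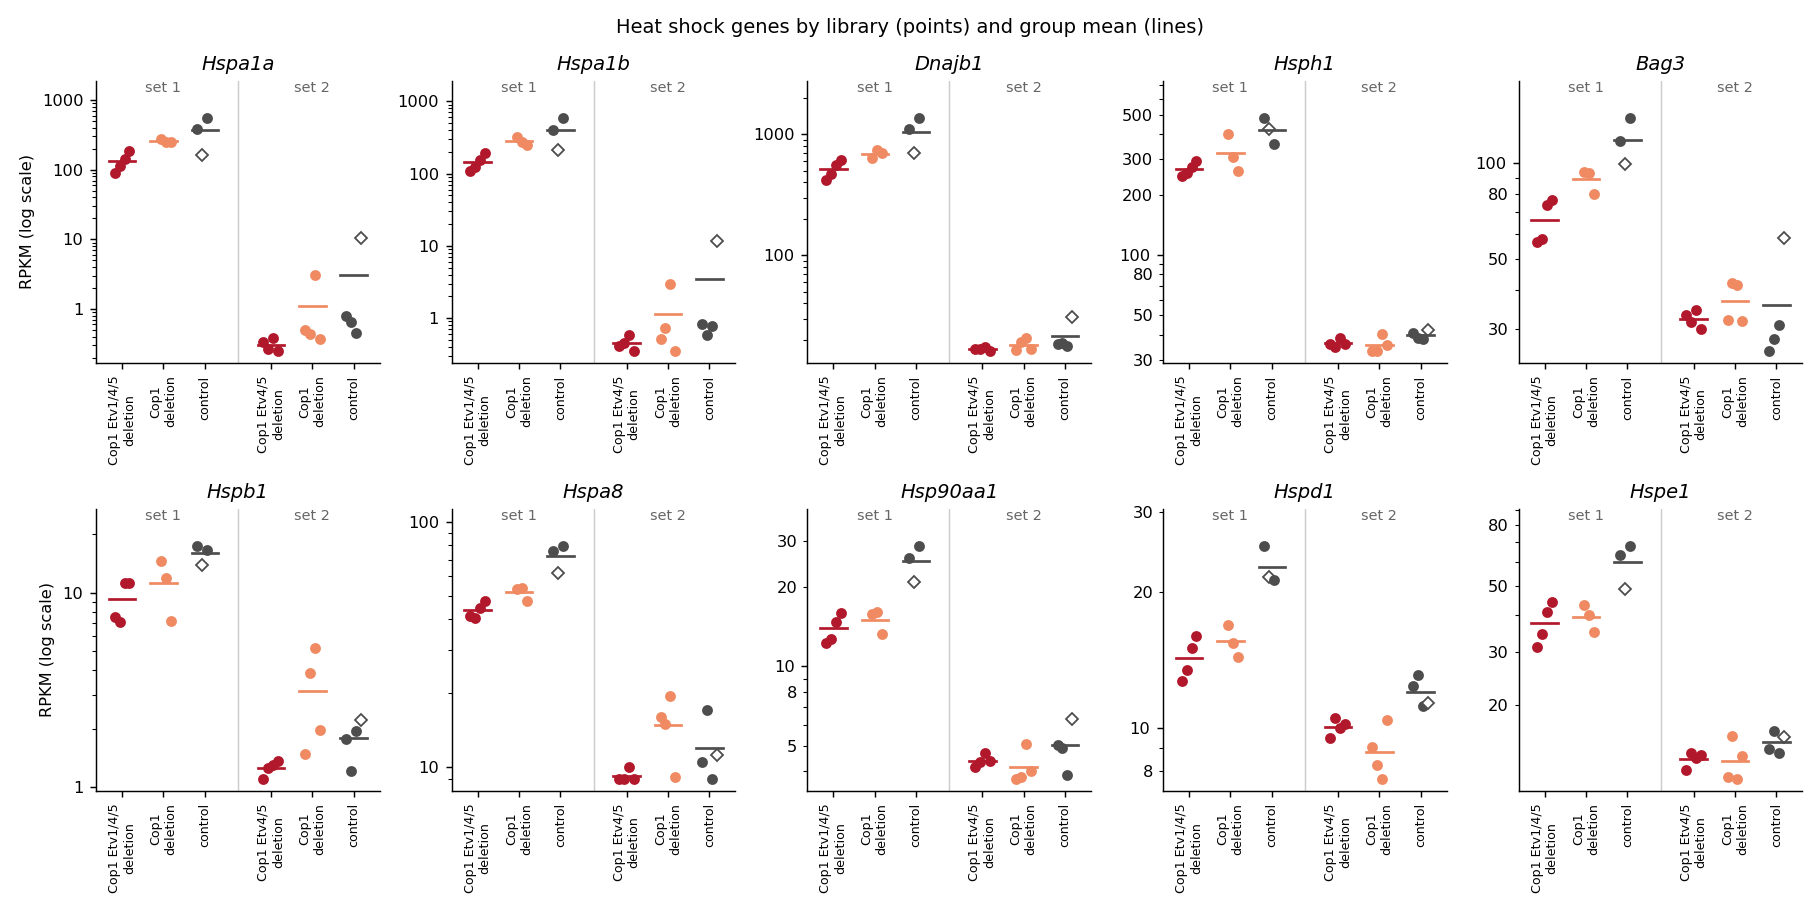
RPKM of the 10 heat shock genes on a log axis, 1 point for each library and a line at each group mean, with set 1 left and set 2 right in each panel; open diamonds are set 1 control replicate 2 and set 2 control replicate 4. Hspa1a lies between 89.8 and 547 RPKM in set 1 and between 0.248 and 10.4 RPKM in set 2, and Hspd1 and Bag3 are the only 2 of the 10 genes whose sets overlap.

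The J-domain co-chaperone Dnajb1, which starts the HSP70 cycle by handing over unfolded proteins, had 423, 472, 558 and 617 RPKM in the Etv1/4/5 libraries, 634, 742 and 707 RPKM after Cop1 deletion and 1108, 695 and 1357 RPKM in controls of set 1. Set 2 libraries had 16.1 to 17.5, 16.4 to 20.7 and 17.9 to 30.9 RPKM in the Etv4/5, Cop1 deletion and control groups, so every library of set 1 was above every library of set 2. Hsph1, the HSP110 exchange factor that resets HSP70, was 248 to 479 RPKM in set 1 and 33.2 to 42.6 RPKM in set 2. Bag3, which links HSP70 to small heat shock proteins and to autophagy, was 56.6 to 139 RPKM in set 1 and 25.6 to 58.1 RPKM in set 2. Its sets overlapped through set 2 control replicate 4 alone, and the next highest library of set 2 had 41.8 RPKM.

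The small chaperone Hspb1, which binds unfolding proteins without using ATP, was 7.10 to 17.4 RPKM in set 1 and 1.11 to 5.19 RPKM in set 2. Hspa8 was 40.7 to 79.5 RPKM in set 1 and 8.97 to 19.5 RPKM in set 2. Hsp90aa1, the inducible cytosolic HSP90, was 12.3 to 28.7 RPKM in set 1 and 3.74 to 6.34 RPKM in set 2. None of these 3 genes overlapped between the sets. The mitochondrial pair differed less. Hspe1, the lid of the mitochondrial folding chamber, was 31.2 to 68.1 RPKM in set 1 and 11.3 to 16.4 RPKM in set 2, and Hspd1, the chamber itself, was 12.7 to 25.2 RPKM in set 1 and 7.69 to 13.1 RPKM in set 2, where the ranges overlap.

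As a difference of mean log2(RPKM + 0.5) between the controls of set 1 and those of set 2, the 10 genes had a median of 2.72, against -0.15 over all genes tested. Between the Cop1 deletion groups of the sets the median was 1.78, against -0.12 over all genes. The control difference was 7.41 for Hspa1b and 7.37 for Hspa1a, which ranked 2 and 3 of 14342 genes, and 0.89 for Hspd1, the smallest of the 10. Without set 2 control replicate 4 the difference was 8.23 for Hspa1b and 8.19 for Hspa1a, and the median of the 10 was 2.75. Without the library labelled set 1 control replicate 2 as well, Hspa1b had 8.63 and Hspa1a 8.69, with a median of 2.86. In 8 of the 10 genes all 10 libraries of set 1 were above all 12 of set 2, a pattern seen in 10.6% of all genes tested (1518 of 14342). These genes were chosen with the difference between sets known, so nothing is read from that count. The sets also differ in sample numbers and depth. The summed ductal markers were 141 to 290 RPKM in set 1 and 948 to 4044 RPKM in set 2, and the summed immune markers were 23.1 to 35.6 RPKM and 40.4 to 98.6 RPKM in the same order, with no marker of either list at 0 throughout a group. The gap in the immune sum lay in Cd68, with 2.09 to 3.89 RPKM in set 1 and 30.2 to 52.3 RPKM in set 2. Each other immune marker had its higher median in set 1, as with C1qb (11.2 against 8.62 RPKM) and Csf1r (3.26 against 2.06 RPKM). Among the ductal markers, Spp1 alone was 10.1 to 153 RPKM in set 1 and 414 to 3493 RPKM in set 2. None of these differences can be told apart from the sets, and no test between sets was made.

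The other chaperones did not share one size of difference. Among 20 other heat-inducible chaperones and co-chaperones the median control difference was 0.70, and 8 of 20 had set 1 entirely above set 2. They were led by Dnaja1, a farnesylated J-protein, with 26.0 to 53.4 RPKM in set 1 and 2.64 to 3.90 RPKM in set 2. Dnajb4, a close relative of Dnajb1, was 44.4 to 95.7 RPKM in set 1 and 9.99 to 12.5 RPKM in set 2. Lists of chaperones that do not depend on heat had medians nearer to that of all genes, -0.15. The median was -0.48 for the 8 subunits of the CCT chaperonin, which folds actin and tubulin, -0.23 for 14 constitutive co-chaperones and 0.06 for 15 chaperones of the endoplasmic reticulum. It was -0.44 for 11 other mitochondrial chaperones and proteases, among them Hspa9, the mitochondrial HSP70, with 81.2 to 110 RPKM in set 1 and 129 to 301 RPKM in set 2. In the endoplasmic reticulum list, 3 of 15 genes had set 1 entirely above set 2 and 0 entirely below. They included Hspa5, with 2369 to 3418 RPKM in set 1 and 902 to 1410 RPKM in set 2. Herpud1 was 553 to 1102 RPKM in set 1 and 136 to 221 RPKM in set 2. Between the Cop1 deletion groups the median of this list was 0.29, against -0.12 over all genes. The heat shock factors themselves differed little in their RNA, with a median of 0.09 over 4 genes, and Hsf1 was 15.9 to 19.7 RPKM in set 1 and 16.1 to 20.98 RPKM in set 2.

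Immediate early genes, which respond to growth signals and to tissue handling without new protein synthesis, had the highest median of the lists, 3.6001 over 16 genes, and 14 of the 16 had set 1 entirely above set 2. Without both controls that stood apart the medians were 4.15 for these, -1.18 for the oxidative and metal stress genes and 0.71 for the other heat-inducible genes. Fos was 229 to 1660 RPKM in set 1 and 7.33 to 32.8 RPKM in set 2. Fosb was 507 to 1395 RPKM in set 1 and 0.335 to 2.05 RPKM in set 2. Oxidative and metal stress genes lay the other way, with a median of -1.16 over 10 genes and 7 of them entirely lower in set 1, a pattern seen in 19% of all genes tested (2730 of 14342). Hmox1, the heme oxygenase induced by oxidants, was 12.2 to 23.6 RPKM in set 1 and 63.2 to 403 RPKM in set 2. A high level of the heat shock genes in set 1 thus stood beside high immediate early genes and beside low oxidative stress genes.

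**Figure D2:**
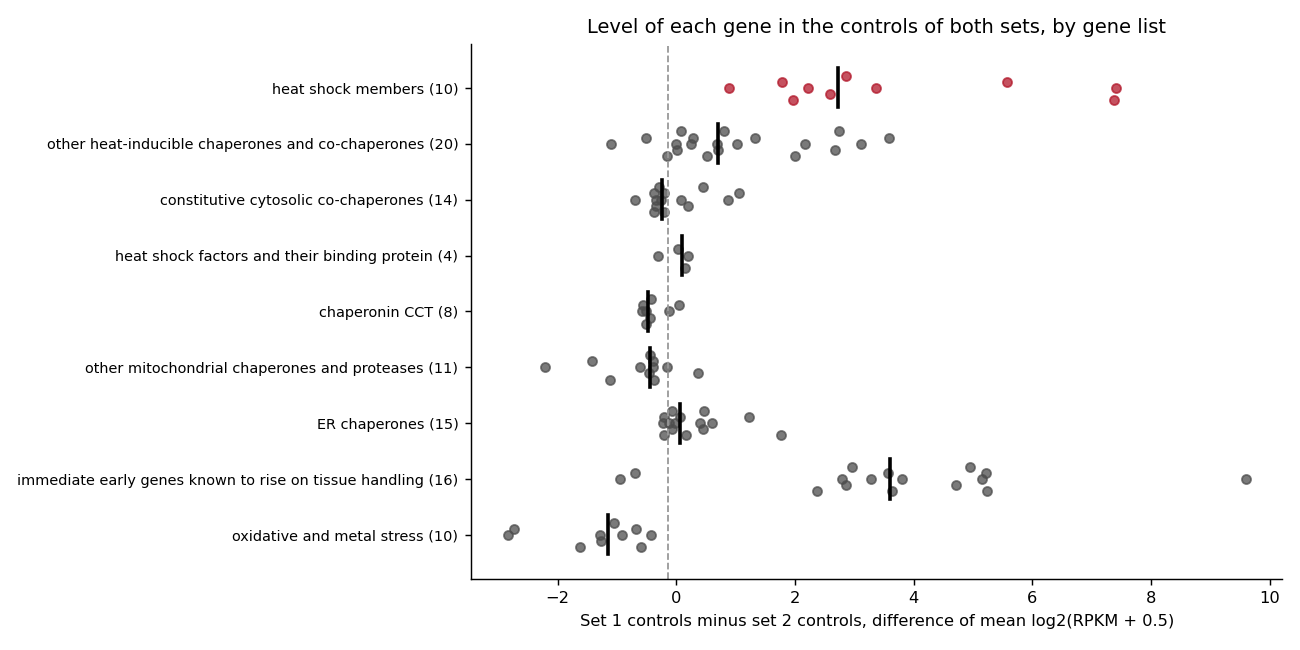
Difference in mean log2(RPKM + 0.5) between set 1 controls and set 2 controls for each gene (points) of the heat shock set and 8 further lists, with list sizes in brackets, the list median as a black bar and the median of all genes tested as a dashed line. The medians are 2.72 for the heat shock genes, 3.6001 for the immediate early genes and -1.16 for the oxidative and metal stress genes.

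In set 1, Cop1 deletion libraries had lower mean levels than controls in all 10 genes, by less than the error in some of them. All 10 log2 fold changes were below 0, with a median of -0.50 against -0.0057 over all genes tested. Hsp90aa1 was 15.8, 16.1 and 13.3 RPKM after Cop1 deletion and 25.8, 21.03 and 28.7 RPKM in controls, a log2 fold change of -0.71 (SE 0.15) with no overlap. Hspd1 was 16.9, 15.4 and 14.3 RPKM after Cop1 deletion and 25.2, 21.6 and 21.2 RPKM in controls (-0.53, SE 0.10). Hspe1 was 43.1, 40.0 and 35.1 RPKM against 63.7, 48.7 and 68.1 RPKM in controls (-0.60, SE 0.14). These 3 had an adjusted p below 0.05 in the limma fit over all genes, beside 8.33% of all genes, and nothing is read from that count because the members were chosen on such values. Hspa8 and Bag3 also had no overlap between the groups. The share of all genes without overlap is not given, here or in the comparisons below. With so few libraries in a group, nothing is read from a lack of overlap. Hspa1a had a log2 fold change of -0.34 (SE 0.69), so its difference was smaller than its error. The fit shares 1 variance per gene over both sets, so the SE of a gene carries the spread of both. The within-group SD on the log2 scale was 0.56 in set 1 and 1.11 in set 2 for Hspa1a, and 0.47 and 1.09 for Hspa1b.

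The library labelled set 1 control replicate 2 was the lowest control in 8 of the 10 genes. Without it the median fold change was -0.69, Hspa1a stood at -0.84 and Dnajb1 at -0.82, and 4 members were below the threshold. Without control replicate 3, in contrast, Hspa1a stood at 0.03. Replicate 2 is also the library with Cre-linked Esr1 at 99.1 RPKM, and it had the greatest depth of set 1, 0.526, with the other set 1 libraries at 0.331 to 0.424. Its part in these differences was not tested beyond leaving it out.

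In the libraries labelled with Etv1, Etv4 and Etv5 deletion in addition, all 10 genes had fold changes below 0 against Cop1 deletion alone, with a median of -0.25 against 0.0016 over all genes. No member was below the threshold, beside 6.34% of all genes. The Hspa1 pair had the lowest fold changes. Hspa1a had a log2 fold change of -1.02 (SE 0.64) and Hspa1b of -0.98 (SE 0.62), and in both every Etv1/4/5 library was below every Cop1 deletion library. Dnajb1 (-0.44, SE 0.19), Bag3 (-0.43, SE 0.20) and Hspa8 (-0.24, SE 0.20) also had no overlap, from which again nothing is read. Hspe1 was 31.2, 34.6, 40.8 and 44.2 RPKM in the Etv1/4/5 libraries and 43.1, 40.0 and 35.1 RPKM after Cop1 deletion, a fold change of -0.07 (SE 0.13) that turned to 0.01 without Etv1/4/5 replicate 1. For the mitochondrial pair and Hsp90aa1 the fold change of this step was nearer to 0 than that of Cop1 deletion against control. For Hspa1a and Hspa1b it was farther from 0, but without the library labelled control replicate 2 the Cop1 deletion step was -0.84 and -0.79, close to the -1.02 and -0.98 of this one. Whether the steps differ was not tested.

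Against controls, the Etv1/4/5 libraries had a median fold change of -0.80, against -0.0017 over all genes, and 6 members were below the threshold (Bag3, Dnajb1, Hsp90aa1, Hspd1, Hspe1 and Hsph1), beside 1.32% of all genes. Again nothing is read from that count. Bag3 was 56.6, 57.9, 73.9 and 76.3 RPKM in the Etv1/4/5 libraries and 118, 99.6 and 139 RPKM in controls (-0.84, SE 0.20). Hsph1 was 248, 256, 274 and 293 RPKM against 479, 422 and 356 RPKM in controls (-0.64, SE 0.12). Hspa1a had -1.35 (SE 0.64), and the highest Etv1/4/5 library, at 185 RPKM, was above the 164 RPKM of the library labelled control replicate 2, so the groups overlapped there. Without that library Hspa1a had -1.85, Hspa1b -1.77 and Dnajb1 -1.26, the median was -0.91, and 6 members were below the threshold. All 10 fold changes kept their sign under each alternative scaling, pseudocount and omission of a library. This comparison shares its libraries with the 2 before it, so it is no further evidence for either.

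**Figure D3:**
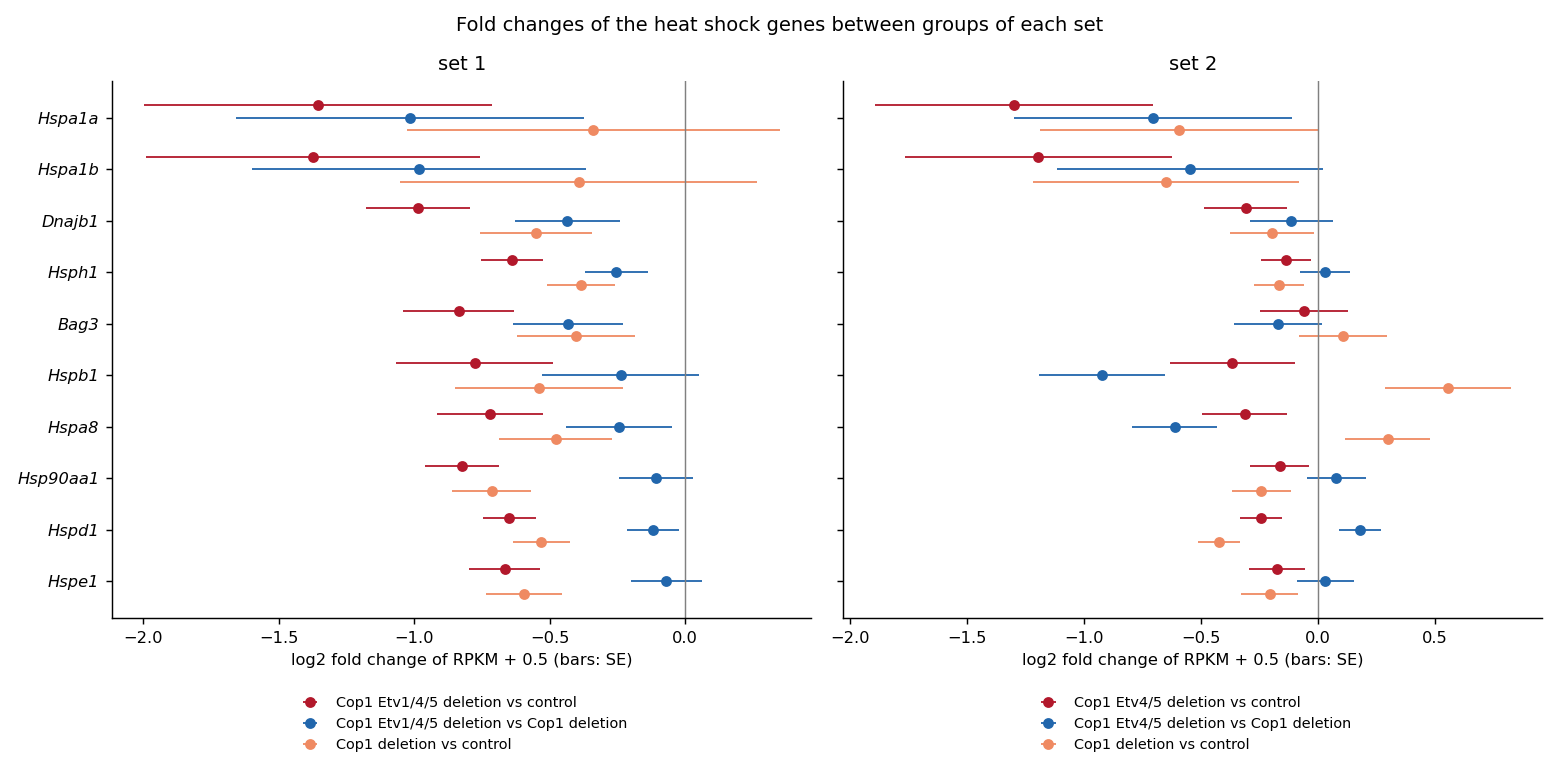
Log2 fold change of each heat shock gene on the log2(RPKM + 0.5) scale, with bars of 1 SE from the fit over all genes, for the 3 comparisons of set 1 (left) and of set 2 (right). In set 1 all values are below 0, with medians of -0.80, -0.25 and -0.50 in the order of the legend; in set 2 the medians are -0.28, -0.14 and -0.20 and Hspb1, Hspa8 and Bag3 lie above 0 after Cop1 deletion.

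In set 2 the median fold changes had the same signs as in set 1 but were smaller in size, and the members were mixed after Cop1 deletion. After Cop1 deletion 7 of 10 fold changes were below 0, with a median of -0.20 against -0.017 over all genes, and 1 member was below the threshold beside 18.8% of all genes. That member was Hspd1, with 9.05, 8.25, 7.69 and 10.4 RPKM after Cop1 deletion and 12.4, 13.1, 11.2 and 11.3 RPKM in controls (-0.42, SE 0.09). Hspa1a (-0.59, SE 0.60) and Hspa1b (-0.65, SE 0.57) owed their values to control replicate 4. Without that library they were 0.23 and 0.17, and the median of the 10 was 0.08. Without Cop1 deletion replicate 3 as well, Hspa1a was -0.26, so single libraries set its sign. Control replicate 4 had the lowest total, 524289 RPKM, the highest Hmox1, 403 RPKM, and the lowest acinar marker sum, 783 RPKM. Cop1 deletion replicate 3 had the highest acinar sum, 22707 RPKM. Their part in the heat shock values was not tested.

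Hspb1, Hspa8 and Bag3 (0.11, SE 0.19) lay above 0 in this comparison, Bag3 by less than its error. Hspb1 was 1.49, 3.89, 5.19 and 1.97 RPKM after Cop1 deletion and 1.78, 1.22, 1.96 and 2.21 RPKM in controls (0.56, SE 0.27). Its 2 highest libraries, Cop1 deletion replicates 2 and 3, also had the highest immune marker sums, 98.6 and 92.5 RPKM. Replicates 1 and 4 had 62.1 and 58.6 RPKM. Within this group replicates 2 and 3 were also highest in the endothelial sum, with 182 and 186 RPKM against 100 and 121 RPKM. The same held for the stellate and fibroblast sum, with 92.2 and 139 RPKM against 8.29 and 54.0 RPKM. Without both libraries the fold change of Hspb1 was -0.03. Hspa8 was 16.0, 15.002, 19.5 and 9.11 RPKM after Cop1 deletion and 10.5, 17.2, 8.97 and 11.2 RPKM in controls (0.30, SE 0.18). It fell into a high and a low level that crossed the genotypes, with 3 Cop1 deletion libraries and 1 control at 15.002 to 19.5 RPKM and the other libraries of set 2 at 8.97 to 11.2 RPKM. In bulk samples more cells of a type and more RNA per cell cannot be told apart.

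The added Etv4/5 deletion gave small and mixed differences from Cop1 deletion, with a median of -0.14 against 0.0099 over all genes, 6 of 10 below 0 and none below the threshold, beside 1.73% of all genes. Hspb1 was 1.11, 1.26, 1.31 and 1.37 RPKM in the Etv4/5 libraries, below all 4 Cop1 deletion libraries (-0.92, SE 0.27). Hspa8 was 8.99, 8.996, 10.1 and 8.98 RPKM in the Etv4/5 libraries (-0.61, SE 0.18). Without Cop1 deletion replicates 2 and 3 the median of the 10 was 0.02. Against controls, the Etv4/5 libraries had all 10 fold changes below 0, with a median of -0.28 against -0.0089 over all genes, and no member below the threshold beside 8.74% of all genes. Hspa1a had -1.30 (SE 0.60) here, with every Etv4/5 library below every control, and -0.48 without control replicate 4. Bag3 (-0.06, SE 0.19) was 0.20 without that library. Hspd1 was 9.49, 10.5, 9.96 and 10.2 RPKM in the Etv4/5 libraries, below all 4 controls (-0.24, SE 0.09).

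How much of a gene's variation lay between genotypes was measured as the share of its sum of squares on the log2(RPKM + 0.5) scale. In set 1 the median share of the 10 genes was 71.6%, against 38.4% over all genes tested. Without the library labelled control replicate 2 it was 86.2%, against 49.0%. The highest share was that of Hspa8, 87.9%, and the lowest that of Hspb1, 54.1%. In set 2 the median share was 31.0%, against 29.9% over all genes, and 32.2% against 36.0% without control replicate 4. Bag3 had 5.55% with that library. Hspd1 had the highest share of the 10 in set 2, 72.2%, and 72.5% without that library. More than 50% of the variation lay between the groups in all 10 genes in set 1. In set 2 it did so in Hspd1 alone, and without control replicate 4 also in Bag3 (53.9%) and Hspb1 (51.5%). The within-group SD was also larger for these genes than for the median gene, with a median of 0.21 against 0.11 in set 1 and of 0.28 against 0.17 in set 2.

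**Figure D4:**
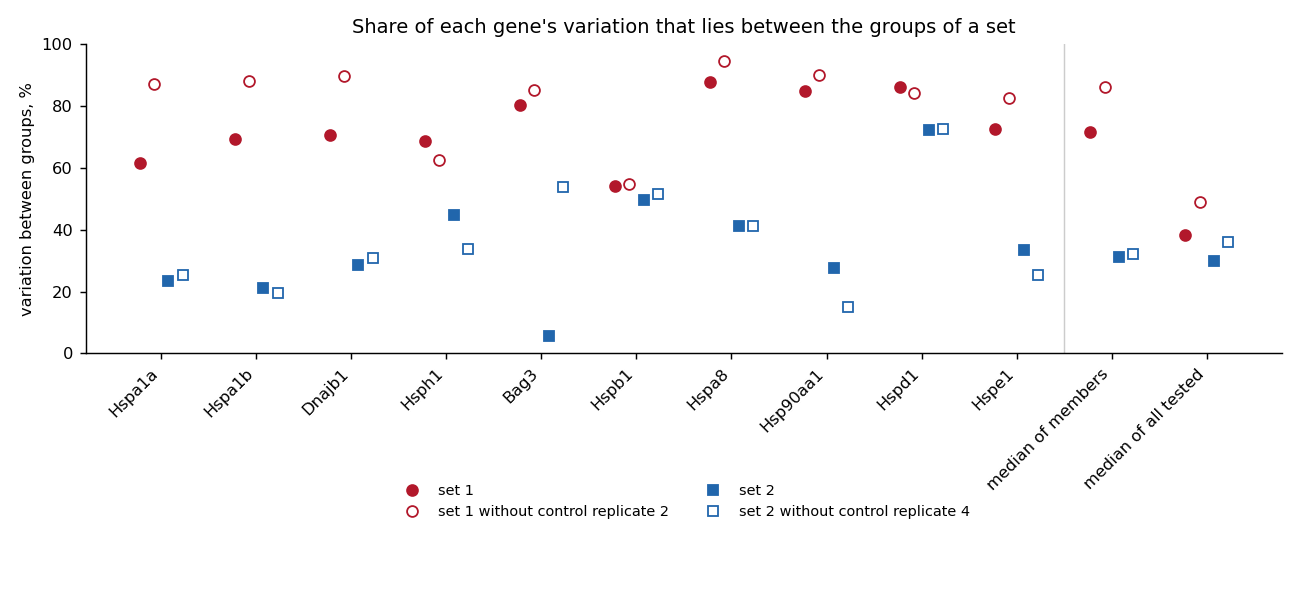
Share of each gene's variation that lies between the 3 groups of a set, in percent, for the 10 heat shock genes, their median and the median of all genes tested; filled symbols use all libraries of the set, and open symbols leave out set 1 control replicate 2 or set 2 control replicate 4. The median of the 10 is 71.6% in set 1 and 31.0% in set 2, against 38.4% and 29.9% over all genes.

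With the group means removed, the 10 genes moved together in set 1. Over its 10 libraries the 45 pairs had a median Pearson r of 0.81, and 44 were above 0. This is a description with no test, since the values of a library share its depth and scaling and the group means were removed beforehand. All 10 genes were above their group mean in Etv1/4/5 replicates 3 and 4, and none was in replicates 1 and 2. In control replicate 1 all 10 were above it, and in the library labelled control replicate 2 only 1 was. Hsph1 was the member that followed the others least, with r of -0.12 with Dnajb1 and 0.07 with Hspa1a, but 0.84 with Hspd1. In set 2 the median r was 0.31, with 33 of 45 pairs above 0, and Hspd1 had a negative r with each of the other members except Hspe1, from -0.21 with Hsp90aa1 to -0.76 with Hspb1, and 0.31 with Hspe1. The libraries farthest above their group there were control replicate 4, by a mean of 0.69 on the log2 scale, and Cop1 deletion replicate 3, by 0.44, with 8 of 10 genes above the group mean in each. Hspa1a was 2.46 and Hspa1b 2.47 above the group mean in control replicate 4, and no Etv4/5 library differed from its group by more than 0.08 in the mean of the 10.

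**Figure D5:**
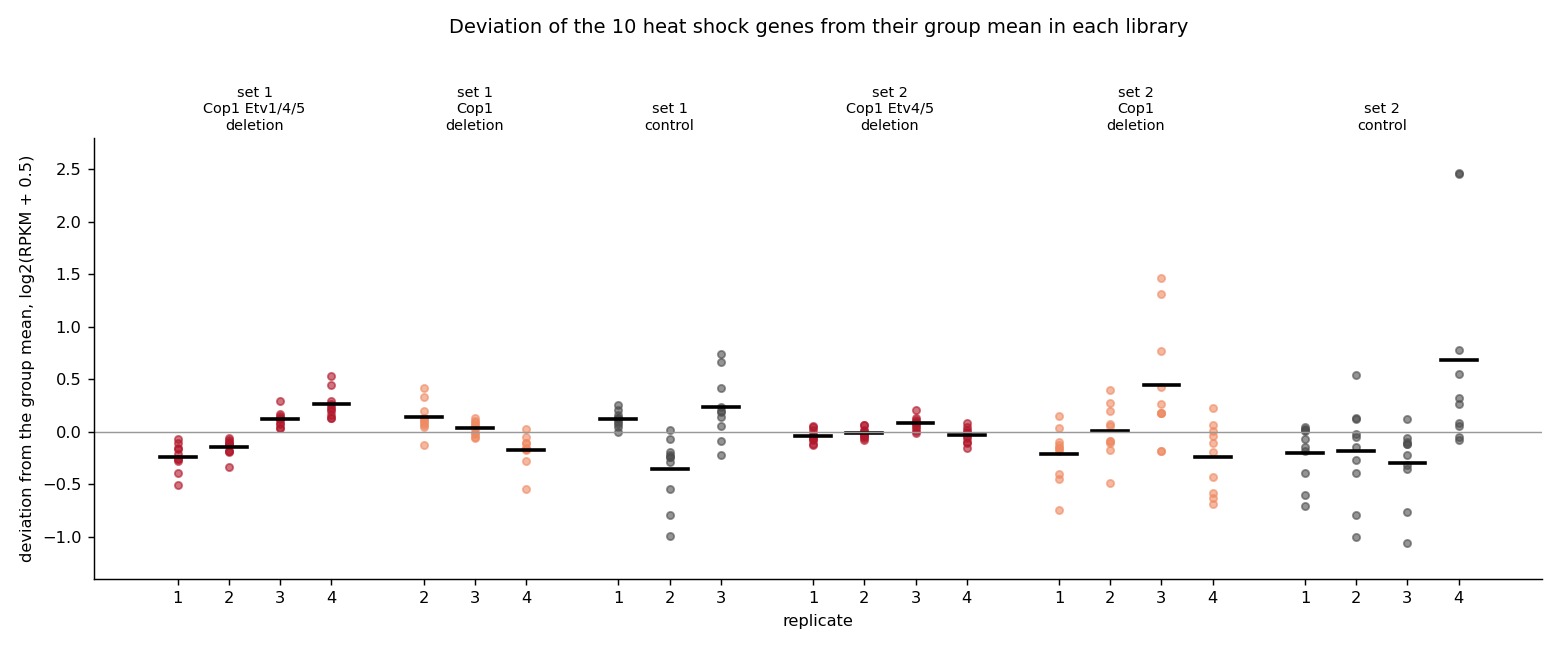
Deviation of each of the 10 heat shock genes (points) from its group mean of log2(RPKM + 0.5) in each library, with the mean of the 10 as a black bar; replicate numbers are names only. The mean is 0.69 in set 2 control replicate 4 and 0.44 in set 2 Cop1 deletion replicate 3, and between -0.36 and 0.26 in the other libraries.

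The 10 genes outside the set whose deviations were most like the mean of the 10 over 22 libraries were Ddit4, Zfp395, Parp10, Hsp90ab1, Trf, Rrbp1, Nptx1, Misp, Gapdh and Dpp3, with r from 0.89 to 0.84. Ddit4, which restrains mTORC1 under stress, was closest at 0.89, with 0.78 in set 1 and 0.95 in set 2. Hsp90ab1, the cytosolic HSP90 that cells make all the time, had 0.87, with 0.93 in set 1 and 0.86 in set 2. In set 1 without the library labelled control replicate 2, r was 0.64 for Ddit4, 0.49 for Parp10 and Gapdh and 0.92 for Hsp90ab1. Gapdh had only 0.645 to 6.15 RPKM over the libraries, so its level and its r are uncertain. Among the lists, the immediate early genes had the highest median r over the 22 libraries, 0.62, against -0.05 over all genes tested. It was 0.53 in set 1, 0.21 there without the library labelled control replicate 2, and 0.79 in set 2. The other heat-inducible chaperones had a median of 0.12, and the heat shock factors with their binding protein had -0.23. In set 1 without the library labelled control replicate 2, these 2 lists had 0.44 and 0.56, above the immediate early genes. In set 2 they had 0.09 and -0.57. The chaperones of the endoplasmic reticulum had -0.61 in set 1 and 0.72 in set 2, and the oxidative and metal stress genes -0.21 and 0.70 in the same order. Without set 2 control replicate 4 the values of set 2 were 0.38 and 0.47, and without the library labelled set 1 control replicate 2 those of set 1 were -0.46 and -0.16.

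The other chaperone genes, tested by the same limma fit with Benjamini-Hochberg adjustment, give the surroundings. After Cop1 deletion in set 1, 6 of the 20 other heat-inducible genes fell and none rose, with a median of -0.33 against -0.0057 over all genes. Of all genes tested, 8.33% were called in either direction, which stands beside each count of this comparison. Without the library labelled control replicate 2, 8 fell. Dnaja1 was 28.6 ± 2.58 RPKM after Cop1 deletion and 46.6 ± 6.59 RPKM in controls (SD, n = 3 each; log2 fold change -0.69, SE 0.10, limma adjusted p = 0.0001). Stip1, which joins HSP70 to HSP90, was 52.7 ± 6.96 and 81.5 ± 9.98 RPKM in the same order (-0.63, SE 0.10, limma adjusted p = 0.00031), and Hsp90ab1 was 664 ± 36.8 and 988 ± 103 RPKM (-0.57, SE 0.10, limma adjusted p = 0.0012). In the CCT chaperonin 3 of 8 subunits fell, and 5 of 15 chaperones of the endoplasmic reticulum rose, among them the disulfide isomerase Pdia6 (0.43, SE 0.09, limma adjusted p = 0.004). Of the oxidative and metal stress genes 4 of 10 fell, led by the metallothionein Mt2 (-1.26, SE 0.19, limma adjusted p = 0.00027). Of the immediate early genes 2 of 16 fell, Nr4a1 and Gadd45b, and 7 fell without the library labelled control replicate 2. The cytosolic chaperones of the lists that passed the test in this comparison all fell, and those of the endoplasmic reticulum that passed all rose. The lists were chosen with earlier results of these data known, so nothing further is read from this split.

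Between the Etv1/4/5 libraries and Cop1 deletion, where 6.34% of all genes were called, 1 of the 20 other heat-inducible genes fell. It was Dnajb4 (-0.38, SE 0.10, limma adjusted p = 0.03). The 4 oxidative and metal stress genes that had fallen, Mt2, Mt1, Srxn1 and Nqo1, rose here, Mt2 by 1.47 on the log2 scale (SE 0.18, limma adjusted p = 5.2e-05). The constitutive co-chaperones Bag2, Unc45a and Dnajb2 and 1 CCT subunit, Cct4, rose as well, and Pdia6 and Pdia3 fell. The heat shock members, in contrast, had fold changes below 0. Both comparisons use the same Cop1 deletion libraries, so opposite signs between them are no independent result. Against controls, 7 of the 20 other heat-inducible genes fell in the Etv1/4/5 libraries, beside 1.32% of all genes called in either direction. Among the 7 were Cacybp, a ubiquitin ligase adaptor (-0.59, SE 0.07, limma adjusted p = 5.7e-05), Dnaja1 (-0.68, SE 0.09, limma adjusted p = 0.00024), Dnajb4 (-0.72, SE 0.10, limma adjusted p = 0.0006) and Hsp90ab1 (-0.64, SE 0.10, limma adjusted p = 0.001). No oxidative, immediate early or endoplasmic reticulum gene of the lists passed the test there in limma, and 1 of 10, 2 of 16 and 6 of 15 had an unadjusted p below 0.05. Without the library labelled control replicate 2, 4 immediate early genes fell, and 2 chaperones of the endoplasmic reticulum and 1 oxidative and metal stress gene rose.

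In set 2, Cop1 deletion left the other heat-inducible genes mixed. Of the 20, 2 rose, Ier5 (0.56, SE 0.08, limma adjusted p = 0.0001) and Zfand2a (0.61, SE 0.15, limma adjusted p = 0.0066), and 2 fell, Hspa4 (-0.32, SE 0.06, limma adjusted p = 0.0011) and Dnaja1 (-0.27, SE 0.08, limma adjusted p = 0.03). Dnaja1 was 2.76 ± 0.113 RPKM after Cop1 deletion and 3.44 ± 0.341 RPKM in controls (SD, n = 4 each), so it fell in both sets at very different levels. Without Cop1 deletion replicate 3, 1 of the 20 fell. In the CCT chaperonin 4 of 8 subunits fell, among them Cct6a (-0.25, SE 0.05, limma adjusted p = 0.0015), beside the 18.8% of all genes called in either direction. That count was 2 without Cop1 deletion replicate 3 and 1 without control replicate 4 as well. Of the 16 immediate early genes 2 fell, Atf3 and Nr4a1, and without control replicate 4 1 fell and 3 rose. Between the Etv4/5 libraries and Cop1 deletion, where 1.73% of all genes were called, Ier5 fell (-0.34, SE 0.08, limma adjusted p = 0.042). No other gene of the 8 lists passed the test in that comparison. At an unadjusted p below 0.05 there were 4 of 20 other heat-inducible, 5 of 16 immediate early and 3 of 10 oxidative and metal stress genes. The call of Ier5 was lost without Cop1 deletion replicate 3. Against controls, where 8.74% of all genes were called, Zfand2a rose (0.69, SE 0.15, limma adjusted p = 0.0049) and Hspa4 fell. Of the 16 immediate early genes 4 fell there, Atf3, Myc, Egr1 and Nr4a1, whereas 2 of the 16 fell without control replicate 4. The heat shock factor Hsf4 fell as well (-0.87, SE 0.16, limma adjusted p = 0.0014), and Hsf2 had fallen after Cop1 deletion (-0.38, SE 0.10, limma adjusted p = 0.011), while Hsf1 passed the test in no comparison.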

How the data were processed

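RNA was sequenced from islets, and the authors deposited 1 table of RPKM values (reads scaled to gene length and library size) for 28059 genes identified by NCBI Gene number, from reads on mouse build mm9, a build named in the submitters' processing notes. Which aligner and counter were used, and how reads that match several genes were treated, is not given in the sources used here. Of 24 library columns, 22 could be tied to a sample by its sample number and 2 were not used. Symbols were found for 24998 genes. The 2 sets are the 2 series of sample numbers in the titles, and replicates were numbered in accession order.

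A gene was kept where 4 or more libraries reached 1 RPKM (14342 genes), log2(RPKM + 0.5) was computed, and limma 3.58.1 in R 4.3.3 was fitted to 6 group means with trended, robust variances. The fit was tested on simulated data. The 6 comparisons within sets were 2-sided, with Benjamini-Hochberg adjustment over all genes tested and a threshold of 0.05. Fold changes on this scale understate the change of low genes such as Hspa1a in set 2. RPKM are not counts, so no count model was used. Depth relative to the deepest library was taken from ratios of values under 0.3 RPKM, and absolute depth is unknown except for the reads solved per gene. Values were deposited as a share of each library, so a few abundant genes can shift the others. Gene sequences were read from RefSeq promoters (GRCm38.p6) and GENCODE transcripts, and no coordinate was converted between builds.

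The members and all gene lists were chosen with earlier results of these data known. Genes named from the lists are the 4 with the lowest adjusted p among those called, and without a call the 2 with the highest mean level. Genes named by likeness are the 10 with the highest Pearson r to the mean member deviation. Alternatives covered scaling, pseudocount, filter, variance model, array weights, the samples in the fit and each library left out.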

Additional observations from a re-analysis of the deposited data

Results flagged for a closer look

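Among the 40 groups of 4 libraries formed by the 10 heat shock genes, 5 held a library far from the others, and chance alone flags about 1 in 20 such groups. The genes were chosen for differing between libraries and move together within a library, so nothing is read from that number. In set 2 control replicate 4, Hspa1a was 10.4 RPKM, with the other controls at 0.449 to 0.806 RPKM. In the same library Hspa1b was 11.5 RPKM, with the others at 0.580 to 0.824 RPKM, and Dnajb1 was 30.9 RPKM, with the others at 17.9 to 18.9 RPKM. The 3 are genes of 1 response measured in 1 library and 2 of them share sequence, so they are not separate observations. In set 2 Cop1 deletion replicate 3, Hspa1a was 3.13 RPKM, with the other Cop1 deletion libraries at 0.377 to 0.496 RPKM. In set 2 Etv4/5 replicate 3, Hspa8 was 10.1 RPKM, with the others at 8.98 to 8.996 RPKM, a small excess over libraries that lay very close together.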

How the results depend on the processing

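The median fold change of the 10 heat shock genes was negative under every alternative in the 3 comparisons of set 1 and in the Etv4/5 comparison with controls. Leaving out each library gave medians of -0.69 to -0.38 (Cop1 deletion against control, set 1), -0.26 to 0.081 (the same, set 2), -0.41 to -0.15 (Etv1/4/5 against Cop1 deletion), -0.20 to -0.08 (Etv4/5 against Cop1 deletion), -0.91 to -0.73 (Etv1/4/5 against control) and -0.30 to -0.18 (Etv4/5 against control). In the same order, the counts of all genes called ranged from 719 to 1891, 1935 to 3418, 543 to 1517, 15 to 775, 91 to 358 and 801 to 1995. Array weights gave 5429, 5035, 3712, 3217, 3022 and 4766 genes. A fit of only the set compared gave 2112 and 1469 genes for Cop1 deletion in sets 1 and 2, 1704 and 0 for the Etv1/4/5 and Etv4/5 steps (limma, with 2077 genes at an unadjusted p below 0.05 for Etv4/5) and 664 for Etv4/5 against control. Without set 1 control replicate 2 and set 2 Cop1 deletion replicates 2 and 3 together, the counts were 2168 for Cop1 deletion in set 1, with a median of -0.69, 1925 for the Etv1/4/5 step, 36 for the Etv4/5 step, with a median of 0.022, and 797 and 2493 for the Etv groups against control. Without set 2 control replicate 4 and Cop1 deletion replicate 3, an alternative chosen after seeing the data, they were 1854, 1528, 662 and 335 for Cop1 deletion in set 1, the Etv1/4/5 step, the Etv4/5 step and Etv1/4/5 against control. Scaling to equal total RPKM gave 1628 genes and a median of -0.39 for the Etv1/4/5 step, with 238 higher and 1390 lower against 523 and 386 as deposited. It gave 1122 higher and 256 lower for Cop1 deletion in set 1 (580 and 615 as deposited), 840 and 1636 in set 2 (1303 and 1399), and 429 and 776 for Etv4/5 against control (715 and 538), and it moved the median of all genes by 0.12 in the first of these and by -0.13 in the Etv1/4/5 step. Scaling without hormones and acinar markers gave 4132 genes for Cop1 deletion in set 2, with 782 higher and 3350 lower and a shift of -0.11 in the median of all genes, 243 and 100 for the Etv4/5 step and 515 and 806 for Etv4/5 against control. Signs of single members changed in 1 gene for Cop1 deletion in set 1 (Hspa1a, 0.03 without control replicate 3) and in 4 in set 2 (Hspa1a 0.23 and Hspa1b 0.17 without control replicate 4, Hspb1 -0.03 and Bag3 -0.08 without Cop1 deletion replicates 2 and 3, Bag3 -0.02 without control replicate 1 and -0.01 with hormones and acinar markers left out of the scaling). They changed in 1 for the Etv1/4/5 step (Hspe1, 0.01 without Etv1/4/5 replicate 1), in 5 for the Etv4/5 step (Hspa1b 0.02, Dnajb1 0.01 and Bag3 0.02 without Cop1 deletion replicates 2 and 3, Hsph1 -0.00 and Hspe1 -0.02 without replicate 1, Hspe1 -0.03 without replicate 3) and in 1 for Etv4/5 against control (Bag3, 0.20 without control replicate 4). The cause of these changes was not tested. No paired analysis was possible because the labels carry no replicate numbers shared between groups. Reads of Hspa1a numbered 32 to 1603 in set 2, which limits the precision of its fold changes there.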

Other observations

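Ubb, which encodes ubiquitin, was 191 to 230 RPKM in set 1 libraries, and the set 2 libraries had 8.39 to 34.5 RPKM. Its reads can match related sequences, so its level is uncertain.

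Ratios within a library leave out its scaling, and they showed that related chaperones differed by unequal amounts between the sets. Hspe1 over Hspd1, which share a promoter region, was 2.26 to 3.21 in the libraries of set 1 (median 2.56) and 1.15 to 1.90 in those of set 2 (median 1.31). Hsp90ab1 over Hsp90aa1, the constitutive over the inducible HSP90, was 37.8 to 47.2 across set 1 (median 44.0) and 85.7 to 118 across set 2 (median 95.3). Inducible over constitutive HSP70 (Hspa1a plus Hspa1b over Hspa8) stood at a median of 8.83 over set 1 and of 0.0813 over set 2. These ratios rest on RPKM of genes that share sequence with pseudogenes, so their absolute sizes are uncertain, and no test between sets was made.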
